A study of Mus musculus with 8 samples.

Results

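The respiratory chain and the ATP synthase of sorted striatal neurons were described here through the nuclear genes of their subunits. The members were the array probes whose gene name marks a subunit of complex I (Ndufa, Ndufb, Ndufc, Ndufs and Ndufv), complex II (Sdha to Sdhd), complex III (Uqcr and Cyc1), complex IV (Cox4 to Cox8), complex V (Atp5) or cytochrome c (Cycs). They came to 138 of 55681 non-control probes and to 92 of 34787 genes and transcripts. A probe counted as measured where 4 or more of the 8 arrays had it well above background by the scanner software's call, which left 134 probes and 89 genes of the 92, out of 26918 genes measured in all. Of the 92 names, 85 were subunits or cytochrome c, and 4 were complex I assembly factors by their name (Ndufaf1 to Ndufaf4). The other 3 share a prefix with subunits but are not counted as subunits (Cox4nb, now Emc8, Atp5s, now Dmac2l, and Atp5sl, now Dmac2). Among the subunits, all 38 genes of complex I, 4 of complex II, 9 of complex III and 15 of complex V were measured, together with Cycs and 15 of the 18 genes of complex IV.

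The study measured medium spiny neurons (MSNs), which project from the striatum and release GABA, on 4 arrays from male R6/2;Scn4b-Venus mice and on 4 arrays from male WT;Scn4b-Venus mice, all at 4 weeks of age. R6/2 mice carry a transgene with the human HTT promoter and exon 1 with an expanded CAG repeat, a model of Huntington's disease in which the transgene is expressed widely and not in MSNs alone. Both groups carried Scn4b-Venus, a fluorescent reporter of a sodium channel subunit gene of MSNs, and cells were sorted as Venus-positive and negative for the dead-cell dye propidium iodide. Whether an array held 1 mouse or a pool is not given in the sources used here, so the p-values measure the spread between these 8 arrays.

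The respiratory chain passes electrons from NADH (complex I) and succinate (complex II) through ubiquinone, complex III and cytochrome c to oxygen at complex IV, and complex V makes ATP from the proton gradient that complexes I, III and IV build up. Apart from complex II, which is wholly encoded in the nucleus, each complex also holds subunits encoded in mitochondrial DNA. The chain is a long-standing subject in Huntington's disease, because inhibitors of complex II damage the striatum before other brain regions and because lower activities of chain complexes were measured in the caudate of patients.

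Levels are log2 signals relative to the array's 75th percentile, and differences are R6/2 minus WT on that log2 scale, estimated by limma with Benjamini-Hochberg adjustment over all 26918 genes. Probes well above background made up 74.0% to 78.8% of all probes on the R6/2 arrays and 50.1% to 76.2% on the WT arrays, with the lowest share on WT replicate 1. R6/2 replicate 4 lay alone on the second slide. The sort was checked with marker lists. All 13 MSN markers were well above background on all 8 arrays, and their summed linear level, in multiples of the array's 75th percentile, was 703 to 801 on R6/2 arrays and 1039 to 1254 on WT arrays. Fewer MSNs in the sort and less RNA of these genes per MSN cannot be told apart in such pooled cells. The summed oligodendrocyte markers lay between 6.10 and 13.5 on R6/2 arrays and between 6.24 and 41.2 on WT arrays, with 4 of 6 markers well above background on all arrays. Of 6 cortical glutamatergic markers, 2 were well above background on all 8 arrays and 3 on no array, Neurod6 and Slc17a6 among them, with a summed level of 0.616 to 1.25 on R6/2 arrays and 0.692 to 0.898 on WT arrays. Microglial markers, 4 of 6 on all 8 arrays, summed to 26.0 to 32.2 on R6/2 arrays and 20.4 to 32.4 on WT arrays. Most of this sum was Csf1r alone, at a mean log2 level of 4.62 in R6/2 and 4.46 in WT. The other microglial markers had mean log2 levels between -3.97 and -0.33 in R6/2 and between -4.30 and 1.23 in WT. They did not move together, with a difference of -1.56 for Aif1 and 0.88 for Cx3cr1. The striatal interneuron markers (2 of 6 on all 8 arrays) reached from 2.39 to 12.02 on R6/2 arrays and from 2.34 to 5.43 on WT arrays. The sums of the astrocyte (3 of 6), endothelial and mural (2 of 6) and erythrocyte (3 of 4) markers were between 1.34 and 3.90 on R6/2 arrays and between 0.773 and 5.32 on WT arrays. The part of these marker levels in the results on the chain was not tested.

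At 4 weeks the subunit genes of the respiratory chain and ATP synthase showed no difference between R6/2 and WT MSNs that passed the test. None of the 89 measured member genes passed the adjusted threshold of 0.05 (limma, lowest adjusted p = 0.67), and 1 of all 26918 genes did (0.00371%). Without adjustment, 3 of the 89 had p under 0.05, or 3.37%, against 7.14% of all genes. The 2 on the higher side were Ndufaf1 and Atp5j2 (3.7% of all genes), and the 1 on the lower side was Ndufs7 (3.45% of all genes). This split depended on the scaling. The median of each array gave 0 higher and 2 lower (all genes in either direction 2029 of 26918). Quantile normalization gave 5 higher and 0 lower (all genes in either direction 1848 of 26918). The methods' t-test on the same values, the test named in the authors' deposited table, gave 5 of 89 without adjustment. Of these, 3 were higher and 2 lower, and over all genes it gave 1857 of 26918. After Benjamini-Hochberg adjustment it gave 0 of 89.

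The differences were small as well as not significant. Over the 82 measured subunit genes, the median difference was -0.0055, the quartiles were -0.093 and 0.15, and 39 genes had a positive and 43 a negative difference. All genes tested had a median of 0.034 with 54% positive. The 95% interval of the difference lay within 1 log2 unit of zero for 80 of the 89 members, against 51.5% of all genes, and within 0.5 for 24 of them. The median interval reached 0.45 to each side for the members and 0.69 for all genes, and the median SD between arrays of a group was 0.21 for the members and 0.44 for all genes.

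**Figure D1:**
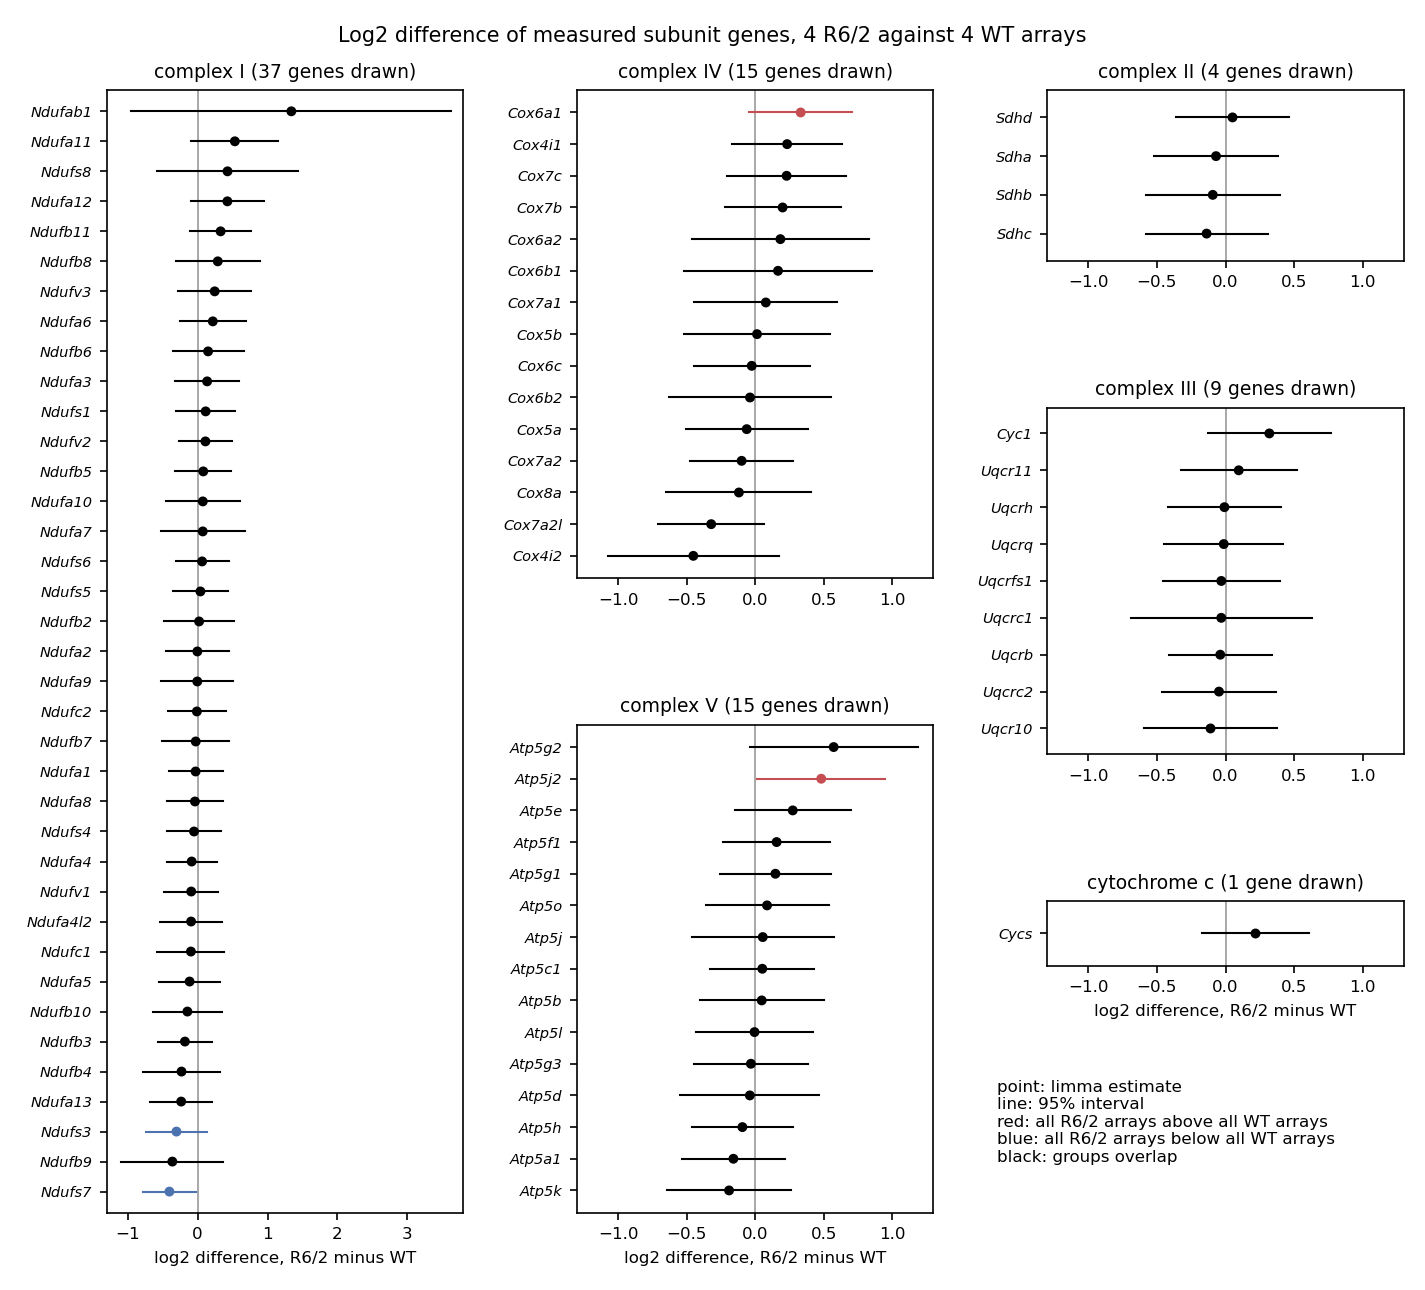
Log2 difference (R6/2 minus WT, x axis) of 81 of the 82 measured subunit genes by complex, with the limma estimate as a point and its 95% interval as a line (4 R6/2 and 4 WT arrays). All genes drawn but the 4 coloured ones have overlapping groups, and Ndufab1, with a difference of 1.34, has the widest interval (complex I is drawn on a longer axis).

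The medians of the 5 complexes were close to each other. The median difference was -0.0052 in complex I, -0.081 in complex II, -0.031 in complex III, 0.013 in complex IV and 0.051 in complex V. The difference of the complex mean was 0.051 in complex I, -0.062 in complex II, 0.015 in complex III, 0.021 in complex IV and 0.090 in complex V. Its sign was not that of the median in complexes I and III. In no complex did the median or the mean difference exceed the SD between arrays of the complex mean. This SD lay between 0.10 (complex V) and 0.17 (complex II), and the mean difference came closest to it in complex V. Of the 38 complex I genes 18 had a positive difference, as had 1 of 4 in complex II, 2 of 9 in complex III, 8 of 15 in complex IV and 9 of 15 in complex V. The scaling set these signs in part. With quantile normalization the subunits' median was 0.073 (all genes 0.019) and 58 of 82 were positive, and with the median of each array it was -0.10 (all genes -0.064) and 25 of 82 were positive. The sign of the subunits' median thus depended on the scaling.

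Some arrays, but not all, lay on the same side of the mean of both groups in complexes I to V. R6/2 replicate 2 and WT replicates 1 and 3 lay below it, and R6/2 replicate 4 and WT replicate 2 above it. The others changed side, as WT replicate 4 did with 0.150 in complex III and -0.072 in complex IV. R6/2 replicate 4 ranged from 0.025 in complex III to 0.221 in complex IV. The complex I mean, expressed as the deviation from the mean of both groups, was 0.024, -0.155, 0.087 and 0.146 on R6/2 replicates 1 to 4, against -0.179, 0.102, -0.104 and 0.080 on WT replicates 1 to 4. The complex V mean was 0.001, -0.031, 0.063 and 0.148 on the R6/2 arrays, against -0.195, 0.065, -0.087 and 0.038 on the WT arrays. In both complexes the groups overlapped, with WT replicate 1 the lowest of all arrays and R6/2 replicate 4 the highest. These 2 arrays were also the lowest and the highest for the mean over all genes tested, at -0.134 and 0.115. The complex II mean spread most, at -0.013, -0.159, -0.010 and 0.057 on the R6/2 arrays, against -0.190, 0.327, -0.074 and 0.062 on the WT arrays. Among WT arrays, replicate 2 was the highest for 46 of the 82 subunit genes and replicate 1 the lowest for 39. Among R6/2 arrays, replicate 4 was the highest for 35 and replicate 2 the lowest for 39. For all genes tested, WT replicate 2 was the highest WT array for 40.4% and WT replicate 1 the lowest for 36.0%, and R6/2 replicate 4 was the highest R6/2 array for 34.8% and R6/2 replicate 2 the lowest for 26.9%.

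**Figure D2:**
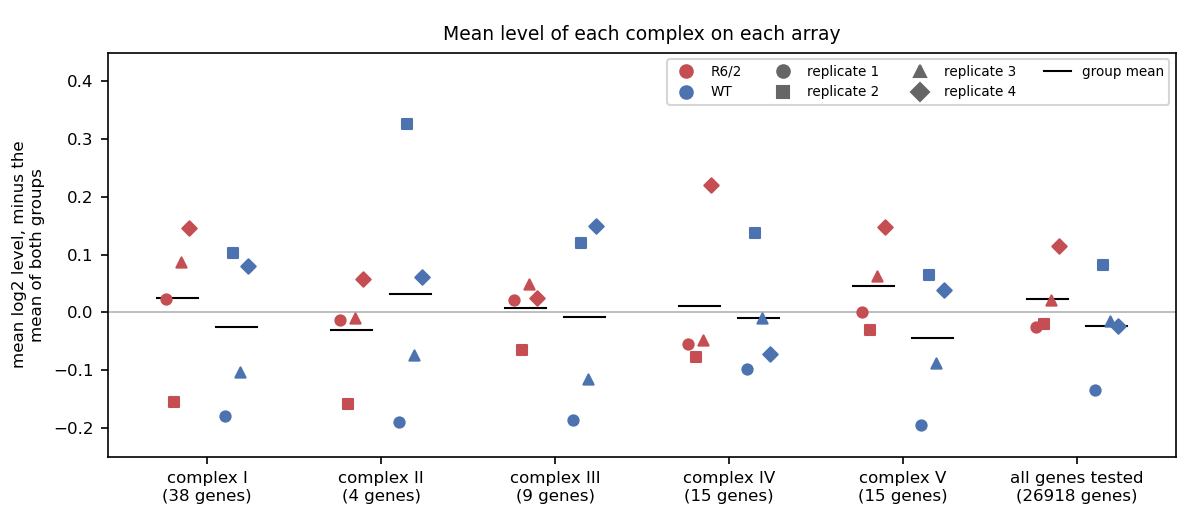
Mean log2 level of the measured genes of each complex on each array (y axis, deviation from the mean of both groups), with 4 R6/2 arrays (red) left of 4 WT arrays (blue), marker shape for the replicate and a line for the group mean; all genes tested stand at the right. The groups overlap in every complex, and in complex II the WT arrays reach from -0.190 to 0.327.

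For 5 members the 4 R6/2 arrays lay wholly on one side of the 4 WT arrays, 5.62% of the 89, against 4.73% of all genes. They were Ndufs7 and Ndufs3 on the lower side and Cox6a1, Atp5j2 and the assembly factor Ndufaf4 on the higher side (2.57% and 2.16% of all genes). Ndufs7 and Ndufs3 are neighbouring core subunits of complex I, and Ndufs7 carries the last iron-sulphur cluster before ubiquinone. Ndufs7 had levels of 2.54, 2.52, 2.42 and 2.47 on the R6/2 arrays, against 3.03, 2.93, 2.66 and 2.95 on the WT arrays. Its mean was 2.49 ± 0.054 in R6/2 and 2.89 ± 0.16 in WT (SD, n = 4 each), a difference of -0.40 (SE 0.17, 1.32-fold lower; limma adjusted p = 0.678). The gap between the groups, at WT replicate 3, was small beside the spread of the WT arrays. Ndufs3 had 4.77, 4.70, 4.78 and 4.60 on the R6/2 arrays, against 4.78, 5.42, 4.96 and 4.90 on the WT arrays. Its difference was -0.30 (SE 0.19, limma adjusted p = 0.782), and R6/2 replicate 3 and WT replicate 1 had the same level to 2 decimals.

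Cox6a1, the widely expressed isoform of a small complex IV subunit, had 5.23, 4.96, 5.09 and 5.10 on the R6/2 arrays, against 4.77, 4.94, 4.68 and 4.66 on the WT arrays. Its difference was 0.33 (SE 0.17, 1.26-fold, limma adjusted p = 0.733), with R6/2 replicate 2 and WT replicate 2 almost touching. Atp5j2, subunit f of the membrane part of ATP synthase, had 2.85, 3.08, 3.25 and 3.29 on the R6/2 arrays, against 2.73, 2.23, 2.75 and 2.83 on the WT arrays. The lowest R6/2 array and the highest WT array differed by less than either group's SD, and WT replicate 2 lay well below the others. Its difference was 0.48 (SE 0.21, 1.40-fold, limma adjusted p = 0.685), and its second probe, which the file places on another chromosome than the gene, gave 0.20 with overlapping groups. Ndufaf4, an assembly factor of complex I, had 2.21, 2.35, 2.59 and 2.07 on the R6/2 arrays, against 2.06, 1.86, 1.98 and 1.84 on the WT arrays. Its difference was 0.37 (SE 0.18, limma adjusted p = 0.728), and its other probe gave 0.61 with overlapping groups. Without WT replicate 1, 10 members had separate groups (8.77% of all genes), and without R6/2 replicate 4 there were 8 (7.19% of all genes), as counts chosen after the data were seen.

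**Figure D3:**
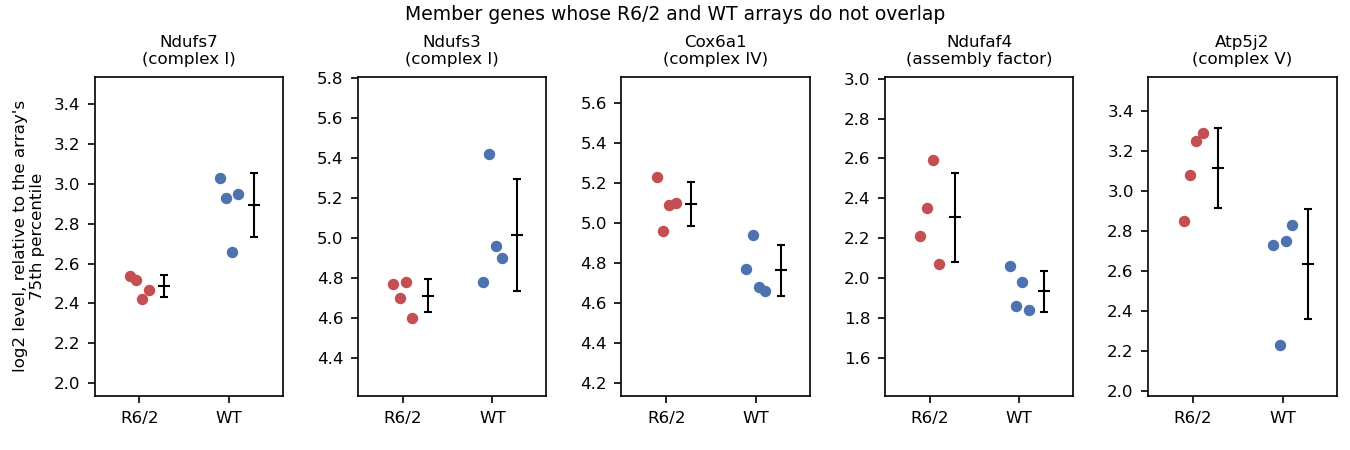
Log2 level relative to the array's 75th percentile (y axis) of the 5 member genes whose groups do not overlap, with each R6/2 array (red) left of each WT array (blue) and the group mean ± SD as a bar (n = 4 each; each panel spans 1.6 log2 units around its own centre). Ndufs7 and Ndufs3 sit lower and Cox6a1, Ndufaf4 and Atp5j2 higher on the R6/2 arrays, with narrow gaps.

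The promoters of subunit genes are known for sites of the factors NRF-1, GABP (also NRF-2) and YY1, and the windows of the 4 separated subunits are shown with the matches in each. The windows are RefSeq's, on GRCm38.p6, 300 bases each, and end shortly after the gene's start. Capitals mark matches, on either strand, to the NRF-1 motif (GCGCA and GCGC with 1 base of any kind between), the GABP motif (CCGGAAG) or the YY1 motif (AAGATGGCG), each counted on its own.
Ndufs7, chr10:80249199-80249498, plus strand: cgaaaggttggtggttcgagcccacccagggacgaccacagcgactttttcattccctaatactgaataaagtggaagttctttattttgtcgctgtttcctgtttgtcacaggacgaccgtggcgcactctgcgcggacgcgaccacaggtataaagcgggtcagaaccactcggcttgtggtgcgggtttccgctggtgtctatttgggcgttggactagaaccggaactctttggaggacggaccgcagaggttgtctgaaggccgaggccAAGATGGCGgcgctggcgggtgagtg
Ndufs3, chr2:90904672-90904971, minus strand: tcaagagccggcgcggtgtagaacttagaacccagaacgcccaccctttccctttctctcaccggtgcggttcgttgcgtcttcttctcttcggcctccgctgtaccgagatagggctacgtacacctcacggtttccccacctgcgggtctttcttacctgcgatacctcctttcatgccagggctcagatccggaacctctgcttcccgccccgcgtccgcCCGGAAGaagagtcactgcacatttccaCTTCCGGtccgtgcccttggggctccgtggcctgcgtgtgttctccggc
Cox6a1, chr5:115348909-115349208, minus strand: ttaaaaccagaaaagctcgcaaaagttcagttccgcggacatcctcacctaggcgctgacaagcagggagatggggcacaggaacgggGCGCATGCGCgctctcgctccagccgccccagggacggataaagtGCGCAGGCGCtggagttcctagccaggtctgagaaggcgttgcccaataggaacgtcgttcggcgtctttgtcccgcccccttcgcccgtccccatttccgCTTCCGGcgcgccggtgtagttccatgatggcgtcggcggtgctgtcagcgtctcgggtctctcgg
Atp5j2, chr5:145191492-145191791, minus strand: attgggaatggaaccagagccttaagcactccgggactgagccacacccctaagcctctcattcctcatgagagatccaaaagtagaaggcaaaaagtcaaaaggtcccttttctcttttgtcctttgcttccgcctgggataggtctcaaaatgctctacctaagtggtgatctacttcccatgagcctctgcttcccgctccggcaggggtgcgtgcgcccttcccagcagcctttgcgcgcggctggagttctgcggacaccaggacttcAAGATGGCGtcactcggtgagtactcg
Ndufs7 and Atp5j2 each held 1 YY1 match just after the start, Ndufs3 held 2 GABP matches, and Cox6a1 held 2 NRF-1 matches and 1 GABP match. Thus 1 gene of the lower side and 1 of the higher side shared the YY1 motif at nearly the same place. Windows were matched for 67 of the 82 measured subunit genes (72 windows). The NRF-1 motif was in 25% of these windows and in 4.60% of all 32851 windows of the reference table, the GABP motif in 22.2% and 8.86%, and the YY1 motif in 9.72% and 1.40%. By complex, NRF-1 matches were in 8 of 35 windows of complex I, 1 of 11 of complex IV and 6 of 17 of complex V, and YY1 matches in 5 of 35, 0 of 11 and 2 of 17. The subunit windows were also richer in CpG, with a median of 19 per window against 7 for all windows, and the NRF-1, GABP and YY1 motifs all contain CG. The part of CpG content in these shares was not tested.

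Complex I takes up electrons from NADH through a flavin and a row of iron-sulphur clusters in nuclear-encoded core subunits, surrounded by accessory subunits. Of the core subunits, Ndufv1, which holds the flavin, had a difference of -0.093, Ndufv2 0.11, Ndufs1 0.11 and Ndufs8 0.43 (SE 0.44), and the groups overlapped for each of these 4 genes. Ndufs7 and Ndufs3 are described above. Among accessory subunits, the smallest unadjusted p on the higher side belonged to Ndufa11, at 0.27, -0.03, 0.75 and 0.65 on R6/2 arrays, against -0.36, -0.46, -0.11 and 0.45 on WT arrays. The difference was 0.53 (SE 0.27, limma adjusted p = 0.738), and WT replicate 4 lay within the R6/2 range. Ndufa12 had a difference of 0.43 (SE 0.23), Ndufb11 of 0.33 (SE 0.19) and Ndufb8 of 0.29 (SE 0.26). On the lower side, Ndufb9 had -0.36 (SE 0.32), Ndufa13, also known as the cell death regulator GRIM-19, -0.24 (SE 0.19), and Ndufb3 -0.18 (SE 0.17). The limma adjusted p of these accessory subunits was 0.738 or higher.

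Ndufab1, the mitochondrial acyl carrier protein, had the highest difference of any member, 1.34 with a 95% interval of -0.95 to 3.63, and was near the detection limit. It was well above background on 3 of 4 R6/2 arrays and 1 of 4 WT arrays, with levels of -2.77, -7.19, -2.85 and -3.13 on the R6/2 arrays, against -4.98, -5.76, -6.43 and -4.13 on the WT arrays. R6/2 replicate 2 was thus the lowest of all 8 arrays while the other 3 were the highest. Ndufa4, first described in complex I and since assigned to complex IV, differed by -0.086 (SE 0.16), with an interval from -0.44 to 0.27. Its paralog Ndufa4l2, which is induced by low oxygen, differed by -0.094 (SE 0.20) and was well above background on all R6/2 arrays and on 3 of the WT arrays. Ndufa4 and Ndufa4l2 were counted by their names in all values of complex I here, and not in those of complex IV.

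Complex II links the citric acid cycle to the chain. Sdha, the flavoprotein, had levels of 2.66, 2.72, 2.62 and 2.46 on R6/2 arrays, against 2.37, 3.06, 2.54 and 2.77 on WT arrays, a difference of -0.069 (SE 0.20). Sdhb, the iron-sulphur subunit, had 2.75, 2.17, 2.46 and 2.56 on R6/2 arrays, against 2.37, 2.99, 2.52 and 2.44 on WT arrays, a difference of -0.093 (SE 0.21). For both genes WT replicate 2 was the highest of all arrays, and only R6/2 replicate 2 for Sdhb lay outside the WT range. The membrane anchors Sdhc and Sdhd differed by -0.14 (SE 0.20) and 0.051 (SE 0.18). The lowest limma adjusted p in this complex was 0.911, and the 95% intervals lay between -0.58 and 0.47. A second Sdhb probe gave 0.41 (SE 0.30).

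Complex III hands electrons to cytochrome c through the Rieske protein and cytochrome c1. Cyc1, cytochrome c1 itself, had levels of 2.13, 2.02, 1.99 and 1.67 on R6/2 arrays, against 1.58, 1.47, 1.51 and 1.97 on WT arrays. Only R6/2 replicate 4 and WT replicate 4 crossed between the groups, and the difference was 0.32 (SE 0.20, limma adjusted p = 0.776). The other 8 genes lay between -0.11 and 0.097. They include the Rieske protein Uqcrfs1 (-0.031), the core proteins Uqcrc1 (-0.031) and Uqcrc2 (-0.048), Uqcrb (-0.038), Uqcr10 (-0.11) and Uqcr11 (0.097). Cycs, the mobile carrier, had 3.64, 3.60, 3.73 and 3.77 on R6/2 arrays, against 3.57, 3.31, 3.31 and 3.68 on WT arrays by its brightest probe, a difference of 0.22 (SE 0.17, limma adjusted p = 0.821) with overlapping groups.

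Complex IV, cytochrome c oxidase, has several subunits that exist as tissue isoforms. Cox4i1, the widely expressed form of subunit 4, had 5.77, 5.65, 5.67 and 5.92 on R6/2 arrays, against 5.60, 5.26, 5.54 and 5.68 on WT arrays, a difference of 0.23 (SE 0.17). Cox4i2, the form known from lung and low oxygen, had -0.75, -0.92, -1.23 and -1.03 on R6/2 arrays, against -0.63, 0.03, -0.35 and -1.17 on WT arrays, a difference of -0.45 (SE 0.27, limma adjusted p = 0.775). The groups overlapped for both forms. Cox6a1 (above) had a difference of 0.33 and its heart and muscle form Cox6a2 of 0.18 (SE 0.28). For Cox6b1 it was 0.17 (SE 0.30) and for the testis form Cox6b2 -0.038 (SE 0.26). For the muscle form Cox7a1 it was 0.077, for Cox7a2 -0.099 and for Cox7a2l, which joins complexes III and IV into supercomplexes, -0.32 (SE 0.17, limma adjusted p = 0.746). Cox7a2l had 5.93, 5.80, 6.08 and 5.97 on R6/2 arrays, against 6.25, 6.40, 6.06 and 6.36 on WT arrays, so that only R6/2 replicate 3 and WT replicate 3 crossed. Cox7b differed by 0.20 (SE 0.19), Cox7c by 0.23 (SE 0.19) and Cox8a by -0.12 (SE 0.23). Not measured were Cox7b2 and Cox8c, known from testis and well above background on 0 of 8 arrays, and Cox8b, known from muscle and well above background on 2 of 4 R6/2 arrays and 0 of 4 WT arrays.

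Complex V consists of a catalytic head, joined by stalks to a membrane part with a rotating ring of c subunits. The head subunits Atp5a1 (alpha) and Atp5b (beta) differed by -0.16 (SE 0.17) and 0.047 (SE 0.20), the stalk subunits Atp5c1 (gamma), Atp5d (delta) and Atp5e (epsilon) by 0.051, -0.039 and 0.27 (SE 0.19), and Atp5o, which joins the head to the side stalk, by 0.086. Their limma adjusted p was 0.794 or higher. The c ring is encoded by 3 genes, Atp5g1, Atp5g2 and Atp5g3, whose mature proteins are identical. Atp5g2 had 3.45, 3.09, 3.34 and 3.48 on R6/2 arrays, against 2.49, 2.24, 3.00 and 3.35 on WT arrays, a difference of 0.57 (SE 0.27, 1.49-fold, limma adjusted p = 0.721). WT replicate 4 lay within the R6/2 range, and the gene's second probe gave 0.19. Atp5g1 differed by 0.15 (SE 0.18) and Atp5g3 by -0.032 (SE 0.18), and how far probes of these similar genes take up each other's RNA was not tested. Of the remaining subunits, Atp5f1 (now Atp5pb) differed by 0.16, Atp5h by -0.094 and Atp5k, subunit e, by -0.19 (SE 0.20).

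The names that match but are no subunits went as follows. Ndufaf1, an assembly factor of complex I, had -0.90, -1.22, -0.77 and -0.98 on R6/2 arrays, against -1.13, -2.79, -1.55 and -1.80 on WT arrays. Its difference was 0.85 (SE 0.34, limma adjusted p = 0.67, the lowest of all members), and WT replicate 1 lay within the R6/2 range while WT replicate 2 lay far below. Ndufaf2 and Ndufaf3 differed by 0.17 and 0.23. Dmac2l (Atp5s) differed by 0.59 (SE 0.27), Dmac2 (Atp5sl) by -0.34 (SE 0.20) and Emc8 (Cox4nb) by -0.13 (SE 0.30).

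Where a gene had several measured probes, the span between their differences was mostly small on the log2 scale. It was not small beside the differences themselves, whose median absolute size over the members was 0.12. For 30 members with several probes, the difference spanned a median of 0.18 between a gene's probes, and under 0.3 in 21 genes. It spanned over 0.5 in 6 genes, Cycs, Ndufb11, Uqcr10, Ndufb5, Cox7c and Sdhb, and 13 genes had probes of opposite sign. The probes of 4 of these genes are shown because probes at different places of the gene gave differences of another sign or size. Only the first 30 of 60 bases are printed, as deposited, and the positions are those of the whole probe on mm9, per the file headers. Whether a probe lies in a coding exon or a UTR was not analysed here.
Cycs, probe 1, mm9 chr6:50515092-50515151, minus strand: atgaatggctagcaatgtttttgttggaca
Cycs, probe 2, mm9 chr6:50514522-50514581, minus strand: aattgtccttaaatacccactcagaaacac
Cycs, probe 3, mm9 chr6:50512563-50512622, minus strand: cgttacacttacatattcattttaaccact
Uqcr10, probe 1, mm9 chr11:4601972-4602031, minus strand: acttctgctgtgtttgagtacagctgtcag
Uqcr10, probe 2, mm9 chr11:4601979-4602038, minus strand: cagactcacttctgctgtgtttgagtacag
Uqcr10, probe 3, mm9 chr11:4604252-4604311, minus strand: acatgtcgttgccgacgatcccttcgcgtc
Cox7c, probe 1, mm9 chr13:86186301-86186360, minus strand: tgtagaaaggagagttaggtggtacggcca
Cox7c, probe 2, mm9 chr13:86184447-86184506, minus strand: aaagtttaagagatgatctgaaaattggat
Cox7c, probe 3, mm9 chr13:86184403-86184462, minus strand: cttatactagaaaaaattgtaaataaacta
Ndufb11, probe 1, mm9 chrX:20192453-20192512, minus strand: tcatccgctgcttgttatttacctggttcc
Ndufb11, probe 2, mm9 chr5:123516746-123516805, plus strand: cgctgcttgttatttacctggttcctcaga
Ndufb11, probe 3, mm9 chrX:20194630-20194689, minus strand: ttccctacagggccatctagatgtcaccgc
Probe 3 of Cycs had levels of -4.48, -2.87, -4.28 and -3.84 on R6/2 arrays, against -2.97, -2.89, -3.03 and -1.11 on WT arrays. The difference was -1.37 (SE 0.52, limma adjusted p = 0.685 over all probes), while the other Cycs probes gave 0.22 and 0.044. R6/2 replicate 2 lay within the WT range, and this dim probe was well above background on all R6/2 arrays and 3 of 4 WT arrays.

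Probe 3 of Uqcr10 had 2.02, 1.68, 2.09 and 2.42 on R6/2 arrays, against 1.11, 0.98, 1.58 and 1.78 on WT arrays. Its difference was 0.69 (SE 0.26, limma adjusted p = 0.679), with only R6/2 replicate 2 below WT replicate 4. The other 2 probes share a run of 53 bases and gave -0.11 and -0.083. Probes 2 and 3 of Cox7c, which share 16 bases and have 25% and 28.3% C or G, gave -0.34 and -0.43, while probe 1, with 55% C or G, gave 0.23. For Ndufb11, probes 1 and 2 share a run of 55 bases although the file places them on chromosomes X and 5, and they gave 0.33 and 0.29. Its dim probe 3 gave 1.14 with an SE of 1.19, and its WT levels reached from -4.82 to 1.87. For Ndufb5 the 4 probes gave 0.080, -0.038, 0.28 and -0.51. In all, 8 member probes had mm9 coordinates on another chromosome or contig than the gene, among Atp5j2, Atp5k, Atp5l, Cox5b, Ndufb11, Uqcr11 and Uqcrh. Their differences lay between -0.18 and 0.29, and such probes may read RNA of similar sequences elsewhere, which was not tested.

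**Figure D4:**
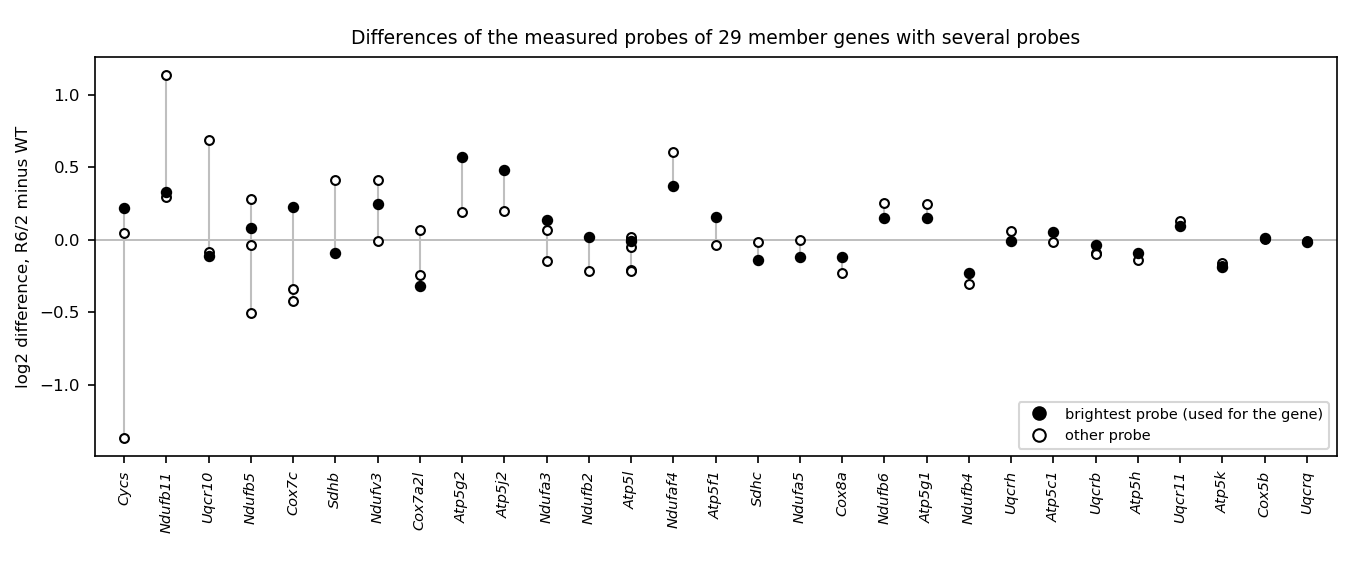
Log2 difference (R6/2 minus WT, y axis) of each measured probe of 29 of the 30 member genes with several measured probes, in order of the span between a gene's probes; filled points are the brightest probe, used for the gene, and open points the others. The span is 1.59 for Cycs and under 0.3 for most of the genes.

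The other genes of the pathway were described from 3 lists. The 13 subunits encoded in mitochondrial DNA, known by the array's names ND1 to ND6, ND4L, CYTB, COX1 to COX3, ATP6 and ATP8, were all measured. None passed without adjustment, the median difference was -0.063, and the range ran from -0.11 to 0.29. With the median of each array the median difference was -0.16 (all genes -0.064). It was -0.033 with normexp background correction (all genes -0.011) and -0.00056 with quantile normalization (all genes 0.019). In each of the latter settings 6 of 13 were positive, against 4 of 13 as reported. COX1, a catalytic subunit of complex IV, had 4.98, 4.73, 4.99 and 4.97 on R6/2 arrays, against 4.84, 4.40, 4.62 and 4.63 on WT arrays, a difference of 0.29 (SE 0.18, limma adjusted p = 0.773). R6/2 replicate 2 lay below WT replicate 1, so the groups overlapped. ND4 of complex I had 0.097, COX2 of complex IV -0.11 and ATP8 of complex V -0.090. For 6 of these 13 probes the file gives coordinates on chromosome 1, where the nuclear genome holds a copy of mitochondrial DNA, and which copy they read was not tested.

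Assembly factors help to build the complexes without being part of them. Of 47 listed, 46 were measured, none passed the adjusted threshold (limma, lowest adjusted p = 0.623), and 4 had p under 0.05 without adjustment, all higher in R6/2 (3.7% of all genes). The median difference was 0.12, with 31 of 46 positive, against 0.034 and 54% for all genes. It was 0.019 with the median of each array, where 2 had p under 0.05 (all genes -0.064). With normexp background correction 7 had p under 0.05, with quantile normalization 6 and with the mean of a gene's probes 6, all higher. In these settings 1969, 1848 and 1944 of all 26918 genes had p under 0.05 in either direction. The median differences were 0.084, 0.14 and 0.14 (all genes -0.011, 0.019 and 0.051). The list includes the 4 Ndufaf members. Surf1, needed for complex IV assembly, had 0.81, -0.21, 0.56 and 0.37 on R6/2 arrays, against -0.14, -0.43, -0.24 and -0.83 on WT arrays. Its difference was 0.79 (SE 0.27, limma adjusted p = 0.623), with R6/2 replicate 2 within the WT range. Foxred1 and Tmem126b, assembly factors of complex I, differed by 1.01 (SE 0.42) and 0.76 (SE 0.32), and Foxred1 was well above background on 3 of 4 WT arrays. On the lower side, Atpaf2 of complex V had -0.54 (SE 0.37) and the copper chaperone Cox17 of complex IV -0.34 (SE 0.25). The count of 4 depended on single arrays. It was 1 without R6/2 replicate 1, 2 without R6/2 replicate 3 and 2 without WT replicate 2, all higher, and without R6/2 replicate 2 it was 4, with 3 higher and 1 lower. Without R6/2 replicate 4, WT replicate 1, WT replicate 3 or WT replicate 4 it was 4, all higher.

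Of 29 listed genes that feed the chain or carry its product, 28 were measured, with a median difference of -0.024 and none at p under 0.05 without adjustment. The median was -0.12 with the median of each array, where 6 of 28 were positive and 1 was lower at p under 0.05 without adjustment, and 0.033 with quantile normalization, where 16 of 28 were positive and 0 had p under 0.05. Ckmt1, the mitochondrial creatine kinase, had 5.59, 5.48, 5.75 and 5.65 on R6/2 arrays, against 5.96, 5.89, 5.98 and 5.90 on WT arrays. All R6/2 arrays lay below all WT arrays, and the difference was -0.31 (SE 0.16, limma adjusted p = 0.733). Fh1, fumarate hydratase, had -0.49 (SE 0.28), Etfa, an electron carrier from fatty acid oxidation, 0.33 (SE 0.18), and Vdac3, a channel of the outer membrane, 0.43 (SE 0.24).

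**Figure D5:**
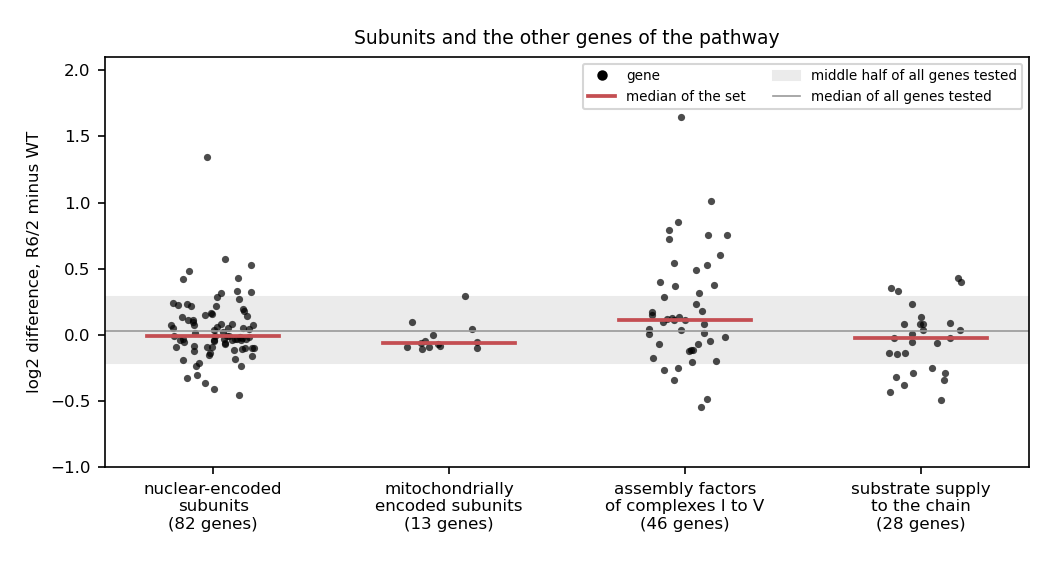
Log2 difference (R6/2 minus WT, y axis) of 82 nuclear-encoded subunit genes, 13 mitochondrially encoded subunits, 46 assembly factors and 28 genes of substrate supply, each gene as a point and the median of each set as a red line. The grey band spans the quartiles of all genes tested (-0.21 to 0.29) and the grey line their median of 0.034; the medians of the 4 sets are -0.0055, -0.063, 0.12 and -0.024.

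The authors' deposited table held all 89 measured members. In the authors' deposited table, the lowest corrected p among them was 0.706, 5 had an uncorrected p under 0.05, and the highest absolute fold change was 2.53, for Ndufab1.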

How the data were processed

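RNA of sorted MSNs was labelled with Cy3 and read on 8 mouse Agilent arrays, per the labels. Per the file headers, the deposited spot intensity values come from Agilent Feature Extraction 10.7.3.1, and probe coordinates are on mm9. By the same headers, the software subtracts background, applies spatial and multiplicative detrending, gives surrogates for dim spots and does not scale between arrays. The authors' deposited table holds their log2 values relative to the array's 75th percentile, a p-value from an unpaired t-test with its correction, and an absolute fold change, per the file headers. One garbled line of R6/2 replicate 3 was left out (62974 of 62976 spots read).

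The processed intensity was taken to log2, outlier spots were dropped, replicate spots averaged, and the array's 75th percentile over non-control probes was subtracted. A probe was tested if 4 or more of 8 arrays had it well above background, and the brightest tested probe stood for its gene. limma 3.58.1 (R 4.3.3; lmFit, then eBayes) gave two-sided tests with no covariate, adjusted by Benjamini-Hochberg over 26918 genes, with a threshold of 0.05. No array's spots of a member were saturated. The same fit was tested on simulated data. Members, lists and tests were chosen with earlier results of these data known. Named genes were, by unadjusted p in each direction, 5 of complex I, 3 of complex III and 4 each of complexes IV and V, all of complex II, Cycs, isoforms, genes with separate groups or with probes differing by over 0.5, and 2 per direction of each further list. Other genes are named for their role. Alternatives covered normexp (offset 50), quantile and median scaling, filters, probe averaging, the authors' log2 values, slide and replicate blocks, array weights, single arrays left out and the methods' t-test. Symbols and promoters came from RefSeq (GRCm38.p6). The results of 2 genes are not reported here. The precision is limited by the number of arrays.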

Additional observations from a re-analysis of the deposited data

Results flagged for a closer look

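In 9 of 102 groups of 4 arrays checked, 1 array lay far from the other 3. Its gap to the nearest one, as a share of the group's range, was past Dixon's 95% critical value. Chance marks about 1 in 20 such groups. The groups checked did not cover every member, and Ndufaf2 with its low WT replicate 2 was not among them. Among R6/2 arrays, replicate 2 had -7.19 for Ndufab1, with the others between -3.13 and -2.77, and 3.77 for Uqcrc2, with the others between 4.16 and 4.18. R6/2 replicate 4, the array alone on the second slide, had -1.04 for Cox6a2 (others -2.12 to -1.95), 0.23 for Cox6b2 (others -0.63 to -0.51) and -2.37 for Ndufa4l2 (others -2.87 to -2.79). Its mean over complex IV was 0.221, with the others between -0.078 and -0.047. Among WT arrays, replicate 2 had 5.91 for Uqcrb (others 5.63 to 5.67), 4.41 for Atp5k (others 3.79 to 3.88) and 2.23 for Atp5j2 (others 2.73 to 2.83). Without WT replicate 2, the array with the low Atp5j2 value, the difference of Atp5j2 was 0.35 in place of 0.48. Levels are log2 relative to the array's 75th percentile, and the complex IV value is a deviation from the mean of both groups.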

How the results depend on the processing

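No member gene passed the adjusted threshold under any of the 19 alternatives, and all 90 values of the complex medians stayed within 1 SD between arrays of the values reported. That SD was larger than each reported median, so a change of sign also counts as within it. The median of each complex changed sign under at least 1 alternative. For complex I it ran from -0.10 (median of each array) to 0.075 (quantile normalization). For complex II it ran from -0.18 (median of each array) to 0.049 (without WT replicate 2). Among all genes, where 1 passed, 8 passed with normexp background correction, 8 with quantile normalization, 6 with probes well above background on all 8 arrays, 5 with a gene's probes averaged and 9 with array weights, and 0 with slide as a block and with the methods' t-test. Members with p under 0.05 without adjustment, 3 of 89 as reported, were 5 with normexp, 5 with quantile normalization, 5 with array weights, 5 with the methods' t-test and 1 with no filter on dim probes. Over all 26918 genes the count was 1923 as reported. It was 1969 with normexp, 1848 with quantile normalization, 2179 with array weights and 1857 with the methods' t-test. With no filter on dim probes it was 2053 of 34787. Leaving out 1 array at a time gave 0 to 3 genes changed, where 3 was without WT replicate 1 and each of the other 7 arrays gave 0, and 0 to 5 members at p under 0.05 without adjustment. The members' count was 0 without R6/2 replicate 3, 1 without R6/2 replicate 1, WT replicate 1 or WT replicate 2, and 5 without WT replicate 4. The count over all 26918 genes lay between 1592 (without R6/2 replicate 4) and 2020 (without WT replicate 2). With the slide as a block, which equals the values within the first slide without R6/2 replicate 4, the complex medians lay between -0.068 and 0.0079. The members with separate groups were 8 without R6/2 replicate 4 (7.19% of all genes) and 10 without WT replicate 1 (8.77%), in place of 5 (4.73%).

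The replicate number did not pair the arrays, since the deviations of same-numbered arrays correlated at 0.030, -0.046, 0.0027 and -0.0057. In the fit with the replicate block, 0 genes passed. Without adjustment, 1 member had p under 0.05, as had 1833 of all 26918 genes.

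Of 46 named genes, 28 kept their sign under every alternative, and 18 changed sign under at least 1, none of them called in any setting and none beyond 0.37 in size. The cause was not tested. With quantile normalization the sign turned for Uqcrc2 (0.023), Uqcrb (0.059), Atp5h (0.0035), Atp5d (0.0057) and Atp5g3 (0.033). With the median of each array it turned for Uqcr11 (-0.000798), Sdhd (-0.046), Ndufb5 (-0.017) and Cox7a1 (-0.020), with the mean of a gene's probes for Uqcr10 (0.17), Cox7c (-0.18), Sdhb (0.16), Cycs (-0.37) and Ndufb5 (-0.045), with slide as a block for Atp5d (0.013), Cox6a2 (-0.063), Cox6b1 (-0.00319) and Cox7a1 (-0.055) and with array weights for Atp5d (0.042). Leaving out 1 array at a time, the differences ranged over -0.26 to 0.063 for Cox8a, -0.24 to 0.050 for Cox6b2, -0.12 to 0.051 for Uqcrc2, -0.12 to 0.12 for Atp5d, -0.18 to 0.043 for Sdhb, -0.12 to 0.039 for Atp5g3 and -0.063 to 0.31 for Cox6a2. They ranged over -0.042 to 0.33 for Cox6b1, -0.055 to 0.21 for Cox7a1, -0.0066 to 0.17 for Uqcr11, -0.21 to 0.038 for Uqcr10, -0.090 to 0.025 for Uqcrb, -0.17 to 0.054 for Sdha and -0.022 to 0.12 for Sdhd.

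The number of arrays and the signal over background limit these results. On simulated data with the spread of these arrays, 8 of 100 genes with a log2 change of 1 passed among 26918 genes. With a change of 3, 77 of 100 passed. Absence of calls alone thus does not show absence of changes of 1 log2 unit. The median SD between arrays of a group was 0.21 for the members and 0.44 for all genes, so these shares need not hold for the members. For 80 of the 89 members the 95% interval lay within 1 log2 unit of no difference, so a change of that size lay outside it. For the rest the interval reached further. Ndufab1, Cox8b, probe 3 of Cycs and probe 3 of Ndufb11 were close to background.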
